A study of Schizosaccharomyces pombe with 9 samples.

Results

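The 9 genes described here flank pho84 and pho1 at the right end of chromosome II of the fission yeast Schizosaccharomyces pombe. They were listed as neighbors of this pair with results of these data known, and found in the count matrix by name or systematic ID. On the pho84 side they are cao2, SPBC8E4.05c, SPBC8E4.04, SPBC8E4.03 and ecl3. On the pho1 side they are SPBPB2B2.01, say1, SPBPB2B2.05 and SPBPB2B2.06c. The coding gene fub2, between pho1 and SPBPB2B2.01, is not among them. The listed genes are 9 of 6988 gene IDs, and all 9 were among the 6091 genes that had at least 10 counts in at least 3 libraries and were tested. Poly(A)+ RNA was measured in snf22-(D996A-E997A), snf22∆ and WT cells, with 3 biological replicates of each genotype. Snf22 is the motor protein of the chromatin remodeler SWI/SNF. In snf22-(D996A-E997A) it carries alanines in place of the aspartate and the glutamate of its ATPase site, and a kanMX drug resistance marker lies downstream of the gene. In snf22∆ the N-terminal part of the reading frame, ATPase site included, is replaced by kanMX. No marker is given for WT, so the marker and the snf22 allele cannot be told apart. Each genotype was a single haploid h- strain, and all cultures were in vegetative log phase in YES, a rich medium that holds phosphate, at 30°C.

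SWI/SNF remodelers use ATP to slide or evict nucleosomes and thereby change the access of transcription factors to DNA. pho84 encodes the phosphate transporter of the plasma membrane and pho1 the secreted acid phosphatase, and both belong to the phosphate regulon, which the factor Pho7 activates. Long non-coding RNAs, prt2 upstream of pho84 and nc-pho1 upstream of pho1, are transcribed toward these genes and repress them in phosphate-rich medium. The genes around the pair have varied products. Among them are enzymes that act on amines, sugar alcohols and sterols, a small protein of the chronological lifespan family, an amino acid transporter and a 5′-nucleotidase. The study counts this nucleotidase gene, SPBPB2B2.06c, with pho1 and pho84 among the genes of phosphate acquisition.

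The libraries held 15696972 to 22664218 counts over genes. snf22 itself had 1966, 2273 and 2312 normalized counts (counts divided by TMM-scaled library size, at the mean library size) in snf22-(D996A-E997A), 1471, 1379 and 1222 in snf22∆ and 2835, 2779 and 2738 in WT. The counts of snf22∆ were not near 0, and only part of the gene is deleted, so this is a partial check of the labels. WT replicate 2 and snf22-(D996A-E997A) replicate 1 stood apart from their own groups. The chi-square per gene against the other 2 libraries was 59.2 and 70.8 for this WT library, against 9.20 between the other two, and 32.9 and 34.9 for this mutant library, against 5.15 between the other two. The mating type markers used to check the h- label, 5 of M cells and 2 of P cells, were all counted. Of the M-cell genes, mfm1, mfm2 and mfm3 had means of 292.4, 2621 and 51.6 in snf22-(D996A-E997A), 17.3, 465.7 and 13.0 in snf22∆ and 40.1, 1759 and 31.4 in WT. The means of mam1 and mam2 were 4077 and 1523 in snf22-(D996A-E997A), 1901 and 166 in snf22∆ and 2389 and 236 in WT. The P-cell genes map2 and map3 had 87.5 and 412.1 in snf22-(D996A-E997A), 144.5 and 380.5 in snf22∆ and 210.5 and 395.4 in WT. In snf22-(D996A-E997A) against WT, map2 was called lower and mfm1 and mam2 were called higher. The means of all 5 M-cell genes were above WT in snf22-(D996A-E997A) and below WT in snf22∆. The means of map2 and map3 were also below WT in snf22∆. The study lists mfm2 among the genes at least 2-fold lower in snf22∆. The part of these differences in the results was not tested. Each count is from bulk RNA, in which fewer cells with a transcript and less of it per cell cannot be told apart.

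The neighbors did not move as 1 block. A gene was called when edgeR's quasi-likelihood test gave a Benjamini-Hochberg adjusted p of at most 0.05, the change was at least 2-fold and the mean normalized count was at least 100 in the higher group. In snf22-(D996A-E997A), 5 of 9 were called lower than in WT (SPBC8E4.03, ecl3, SPBPB2B2.01, SPBPB2B2.05 and SPBPB2B2.06c), against 3.07% of all genes tested. Without WT replicate 2 this count was 3, since SPBC8E4.03 fell short of 2-fold and SPBPB2B2.06c was no longer tested. None was called higher, against 1.90% of all genes, and 0 were higher at an unadjusted p under 0.05 or with DESeq2. In snf22∆, 4 of 9 were called lower than in WT (ecl3, SPBPB2B2.01, SPBPB2B2.05 and SPBPB2B2.06c), against 3.09% of all genes, and 1 was called higher (cao2), against 2.56%. On the adjusted p alone the snf22∆ counts were 5 lower, with SPBC8E4.03 added, against 25.8% of all genes, and 2 higher, with SPBC8E4.04 added, against 30.2%. Over the 9 genes the median log2 fold change was −1.05 in snf22-(D996A-E997A) and −0.85 in snf22∆, against 0.02 over all genes in each comparison. Both comparisons use the same 3 WT libraries. SPBPB2B2.06c passed the filter on low counts only through these libraries, so a lower level was favored in it. It is part of the lower counts and of the medians given here. Of the other 10 tested coding loci between the outermost members, 6 were lower in each mutant on the adjusted p alone. pho84 and pho1 are among these 6. The shares of all genes were 22.7% in snf22-(D996A-E997A) and 25.8% in snf22∆. The members were proposed with results of these data known, and the lower levels of several of them were part of those results.

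**Figure D1:**
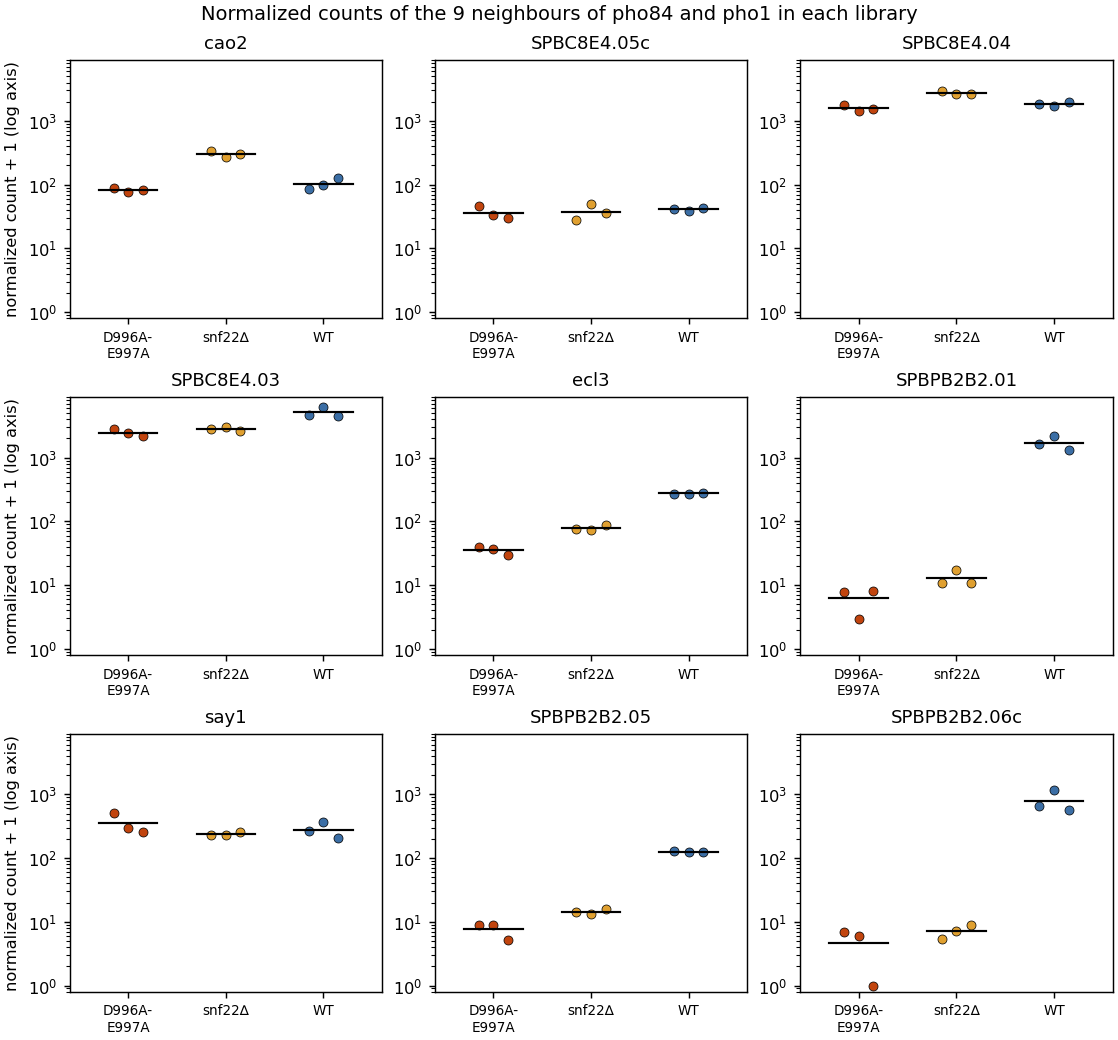
Normalized count plus 1 of each of the 9 genes (log axis, the same in each panel) in the 3 libraries of snf22-(D996A-E997A), snf22∆ and WT; points are libraries and lines are group means. SPBPB2B2.01, SPBPB2B2.05, SPBPB2B2.06c, ecl3 and, by less, SPBC8E4.03 sit below WT in all 6 mutant libraries. cao2 and SPBC8E4.04 are higher in the 3 snf22∆ libraries alone, and SPBC8E4.05c and say1 overlap between all groups.

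The strongest reductions were on the pho1 side. SPBPB2B2.01 encodes an amino acid transmembrane transporter. It had 6.88, 1.97 and 7.17 normalized counts in snf22-(D996A-E997A), 9.62, 16.5 and 9.84 in snf22∆ and 1658, 2222 and 1297 in WT. All 6 mutant libraries were thus far below the lowest WT library, and WT replicate 2 was the highest of its group. The raw counts behind these values were 7, 2 and 7 in snf22-(D996A-E997A), 11, 19 and 10 in snf22∆ and 1699, 1957 and 1000 in WT. The log2 fold change of SPBPB2B2.01 was −8.31, or 317-fold lower, in snf22-(D996A-E997A), with a standard error (SE) of 0.32 and an adjusted p of 1.1e-08. It was −7.15 (SE 0.28, adjusted p = 6.9e-09), or 142-fold lower, in snf22∆. These changes were larger on the log2 scale than those of pho1 itself, −6.76 in snf22-(D996A-E997A) and −5.76 in snf22∆, although the difference between SPBPB2B2.01 and pho1 was not tested.

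SPBPB2B2.06c, the outermost gene on this side, encodes an extracellular 5′-nucleotidase, an enzyme that releases phosphate from nucleotides outside the cell. It had 5.90, 4.92 and 0 normalized counts in snf22-(D996A-E997A), 4.37, 6.07 and 7.87 in snf22∆ and 644, 1183 and 572 in WT. The mutant groups overlapped each other and lay far below WT, whose replicate 2 was again the highest. Its change on the log2 scale was −7.73 (SE 0.47, adjusted p = 4.2e-07) in snf22-(D996A-E997A) and −7.02 (SE 0.43, adjusted p = 2.8e-07) in snf22∆. No mutant library had more than 8 raw counts of this gene, so it was tested only because of its WT libraries, and leaving out any 1 of them removed it from the test.

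SPBPB2B2.05 encodes a class I glutamine amidotransferase family protein. It had 7.86, 7.87 and 4.10 normalized counts in snf22-(D996A-E997A), 13.1, 12.1 and 14.8 in snf22∆ and 129, 123 and 123 in WT. Its WT replicates were close to each other, with a coefficient of variation of 2.8%, against 41.8% for SPBPB2B2.06c and 27.0% for SPBPB2B2.01 in the same libraries. The log2 fold change of SPBPB2B2.05 was −4.21 (SE 0.25, adjusted p = 4.2e-07), or 18.5-fold lower, in snf22-(D996A-E997A) and −3.22 (SE 0.22, adjusted p = 8.3e-07), or 9.32-fold lower, in snf22∆.

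say1 lies between SPBPB2B2.01 and SPBPB2B2.05 and encodes a sterol deacetylase of the endoplasmic reticulum. It passed the test against WT in neither mutant. Its normalized counts were 504, 293.98 and 259 in snf22-(D996A-E997A), 231, 230 and 260 in snf22∆ and 265, 363 and 208 in WT. The groups overlapped, and the highest value came from snf22-(D996A-E997A) replicate 1, a library that stood apart. On the log2 scale say1 differed from WT by 0.34 (95% interval −0.21 to 0.88, adjusted p = 0.27) in snf22-(D996A-E997A) and −0.22 (−0.77 to 0.33, adjusted p = 0.48) in snf22∆. Without snf22-(D996A-E997A) replicate 1 the value of that mutant was −0.01. Both neighbors of say1 in the coding order thus fell at least 9.32-fold in each mutant, while the intervals for say1 hold no change of 2-fold or more.

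On the pho84 side the changes were smaller and went in both directions. ecl3, the gene next to pho84, encodes a member of the small Ecl proteins, which extend the chronological lifespan of fission yeast when overproduced. It had 39.3, 35.4 and 28.7 normalized counts in snf22-(D996A-E997A), 74.4, 71.1 and 87.5 in snf22∆ and 269, 272 and 279 in WT. The 3 groups did not overlap and were ordered as pho84 and pho1 were, with snf22-(D996A-E997A) lowest. The log2 fold change of ecl3 was −2.98 (SE 0.17, adjusted p = 3.1e-07), or 7.90-fold lower, in snf22-(D996A-E997A) and −1.82 (SE 0.15, adjusted p = 4.4e-06), or 3.52-fold lower, in snf22∆.

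SPBC8E4.03, the next coding gene outward, encodes agmatinase 2, of the family that splits agmatine into putrescine and urea. It had 2768, 2406 and 2222 normalized counts in snf22-(D996A-E997A), 2819, 3015 and 2649 in snf22∆ and 4596, 6193 and 4553 in WT. The mutants overlapped each other, and both lay below WT. Its log2 fold change was −1.05 (SE 0.12, adjusted p = 6.5e-05) in snf22-(D996A-E997A), which is just past the 2-fold threshold. It was −0.85 (SE 0.12, adjusted p = 0.00021) in snf22∆, short of 2-fold. The call in snf22-(D996A-E997A) was lost on fold size, at −0.90 without WT replicate 2 and −0.97 without snf22-(D996A-E997A) replicate 3, with the adjusted p still at 1.0e-05 and 0.00031.

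SPBC8E4.04 encodes an alditol NADP+ 1-oxidoreductase, an enzyme that interconverts sugars and sugar alcohols. Its normalized counts were 1790, 1418 and 1516 in snf22-(D996A-E997A), 2983, 2661 and 2603 in snf22∆ and 1847, 1742 and 1947 in WT. Levels in snf22∆ were above all other libraries, and those of snf22-(D996A-E997A) overlapped WT. The gene rose 1.49-fold in snf22∆ (log2 fold change 0.58, SE 0.09, adjusted p = 0.00049). In snf22-(D996A-E997A) the log2 fold change was −0.23 (SE 0.09, adjusted p = 0.063), and this value passed the threshold under 7 of the other settings, with adjusted p between 0.0028 and 0.043.

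SPBC8E4.05c, for a protein of the fumarate lyase superfamily with no known substrate, had few counts and no detectable change. Its normalized counts were 45.2, 32.4 and 28.7 in snf22-(D996A-E997A), 27.1, 48.6 and 34.4 in snf22∆ and 41.0, 37.5 and 41.5 in WT. Its log2 fold change was −0.17 (95% interval −0.76 to 0.42, adjusted p = 0.62) in snf22-(D996A-E997A) and −0.12 (−0.71 to 0.46, adjusted p = 0.72) in snf22∆. A change within these intervals was not detectable at this depth.

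cao2, the outermost gene on the pho84 side, encodes a copper amine oxidase-like protein. Enzymes of that family oxidize primary amines. It had 86.5, 76.7 and 82.0 normalized counts in snf22-(D996A-E997A), 339, 272 and 302 in snf22∆ and 84.9, 96.5 and 126 in WT. snf22∆ was above both other groups in every library, and snf22-(D996A-E997A) overlapped WT. cao2 rose 2.99-fold in snf22∆ (log2 fold change 1.58, SE 0.17, adjusted p = 2.5e-05). In snf22-(D996A-E997A) the log2 fold change was −0.32 (95% interval −0.71 to 0.07, adjusted p = 0.16).

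An antisense RNA, cao2-antisense-1, covers 94.5% of cao2 on the opposite strand in the reference annotation (ASM294v3), and 98.9% of the RNA lies over cao2. It had 1220, 1148 and 1046 normalized counts in snf22-(D996A-E997A), 780, 828 and 781 in snf22∆ and 1394, 1701 and 1345 in WT. The 3 groups did not overlap, and snf22∆, where cao2 was highest, had the least of it. The antisense RNA fell in both mutants, and its log2 fold change was −0.38 (SE 0.10, adjusted p = 0.0093) in snf22-(D996A-E997A) and −0.89 (SE 0.10, adjusted p = 3.8e-05) in snf22∆. In snf22-(D996A-E997A) it fell beside a cao2 level for which no change was called. The strand setting of the counting is not given in the sources used here, so both values are uncertain as far as reads of the opposite strands were not kept apart.

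**Figure D2:**
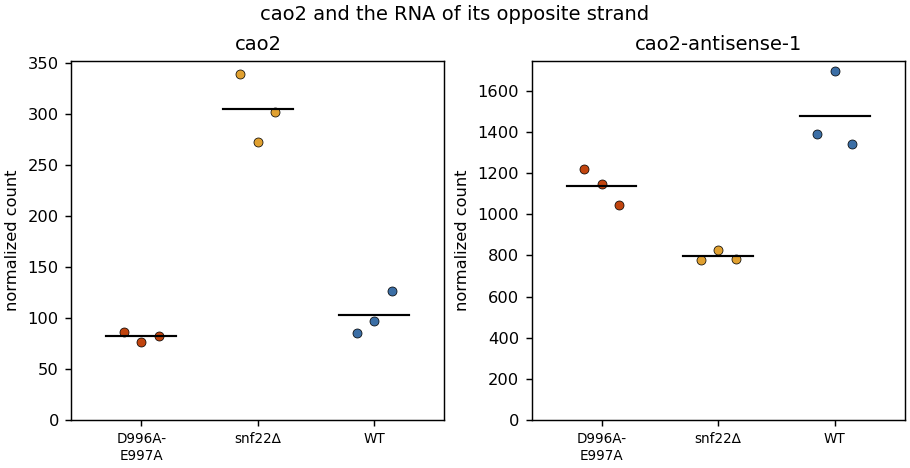
Normalized counts of cao2 (left) and of cao2-antisense-1 on its opposite strand (right) in the 3 libraries of snf22-(D996A-E997A), snf22∆ and WT, on linear axes from 0; points are libraries and lines are group means. In snf22∆ cao2 had 272 to 339 counts and its antisense RNA 780 to 828, the lowest of the 3 groups.

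The mutants were also compared directly, to ask whether the inactive ATPase and the missing protein differed in effect. Of the 9 genes, 1 was called lower in snf22-(D996A-E997A) cells than in snf22∆ cells (cao2), against 0.887% of all genes tested, and none was called higher, against 0.969%. With DESeq2 none was called higher either, and say1 alone was higher at an unadjusted p under 0.05. On the adjusted p alone 3 were lower (cao2, SPBC8E4.04 and ecl3), against 8.64% of all genes. The median log2 difference of the 9 was −0.80, against −0.02 over all genes.

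cao2 differed most, with a log2 difference of −1.90 (SE 0.17, adjusted p = 1.8e-05), or 3.72-fold lower in snf22-(D996A-E997A) cells than in snf22∆ cells. SPBC8E4.04 had −0.80 (SE 0.09, adjusted p = 0.00016). Both genes were above WT in snf22∆ and did not pass the test against WT in snf22-(D996A-E997A). ecl3 had −1.17 (SE 0.18, adjusted p = 0.0011) and was below WT in both mutants. Its mean normalized counts of 34.5 ± 5.4 in snf22-(D996A-E997A) and 77.7 ± 8.7 in snf22∆ (SD, n = 3 each) were under the count threshold, so it was not called.

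The genes with the strongest reductions could not be ranked between the mutants. The log2 difference was −1.16 for SPBPB2B2.01 (95% interval −2.41 to 0.08, adjusted p = 0.18) and −0.71 for SPBPB2B2.06c (−2.64 to 1.22, adjusted p = 0.62), on 2 to 7 against 10 to 19 raw counts per library for SPBPB2B2.01 and 0 to 6 against 5 to 8 for SPBPB2B2.06c. SPBPB2B2.05 had −0.99 (−1.69 to −0.29, adjusted p = 0.052), with no overlap between the mutants, and without WT replicate 2 its adjusted p was 0.049. SPBC8E4.03 had −0.20 (−0.46 to 0.07, adjusted p = 0.30), and −0.29 (adjusted p = 0.0048) without both libraries that stood apart. say1 had 0.55 (0.01 to 1.10, adjusted p = 0.15), its adjusted p was 0.0496 when the mutants were fitted without WT, and without snf22-(D996A-E997A) replicate 1 its value was 0.21 (adjusted p = 0.58). For pho84 and pho1 the differences were −2.21 (adjusted p = 1.2e-07) and −0.996 (adjusted p = 0.00049).

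**Figure D3:**
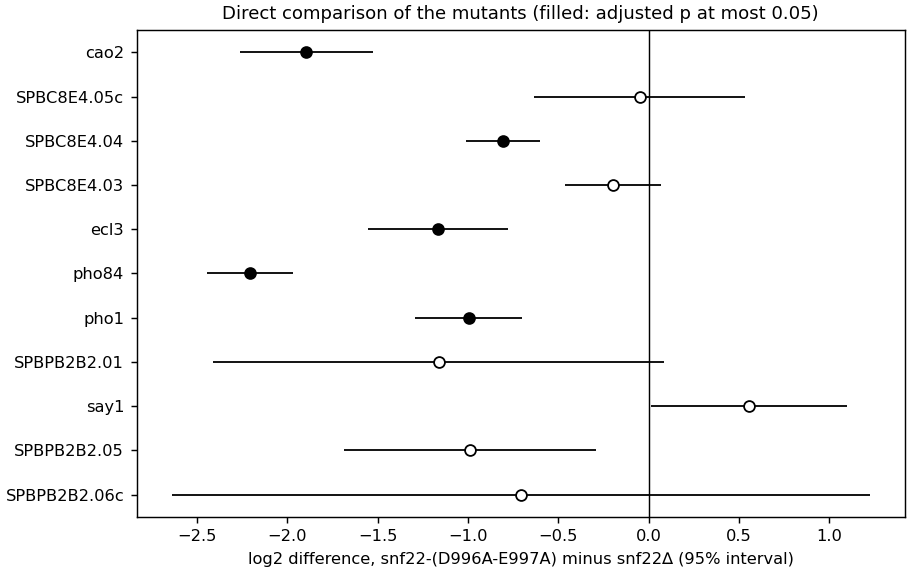
Log2 difference between the mutants, snf22-(D996A-E997A) minus snf22∆, with its 95% interval, for the 9 genes and for pho84 and pho1 in chromosome order; filled points have an adjusted p of at most 0.05. cao2 at −1.90 lies farthest from 0 among the 9, and the intervals of SPBPB2B2.01 and SPBPB2B2.06c, which had few counts in both mutants, span 0.

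Between cao2 and SPBPB2B2.06c the reference annotation holds 40 loci, 12 coding and 28 non-coding, of which 11 coding and 10 non-coding ones were tested. pho84 had mean normalized counts of 371 ± 49 in snf22-(D996A-E997A), 1711 ± 162 in snf22∆ and 29444 ± 1676 in WT, and pho1 had 339 ± 73, 676 ± 46 and 36624 ± 2316 in the same groups (SD, n = 3 each). The 1 coding locus not tested, fub2 next to pho1, which encodes a proteasome regulator of the PI31 type, had 5, 0 and 1 raw counts in snf22-(D996A-E997A), 0 in each snf22∆ library and 3, 7 and 11 in WT. Going outward on the pho1 side, the log2 fold change in snf22-(D996A-E997A) was thus −6.76 at pho1, −8.31 at SPBPB2B2.01, 0.34 at say1, −4.21 at SPBPB2B2.05 and −7.73 at SPBPB2B2.06c. On the pho84 side it was −6.31 at pho84, −2.98 at ecl3, −1.05 at SPBC8E4.03, −0.23 at SPBC8E4.04, −0.17 at SPBC8E4.05c and −0.32 at cao2. Along the pho84 side the values in this mutant came nearer to 0 with each gene as far as SPBC8E4.05c, and those of SPBC8E4.04, SPBC8E4.05c and cao2 did not pass the test. Farther out, SPBC1289.14, beyond cao2, was at −3.33 in the same mutant. In snf22∆ this order did not hold, since SPBC8E4.04, at 0.58, and cao2 were above WT, with SPBC8E4.05c, at −0.12, between them. On the pho1 side say1 broke any such order.

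Several non-coding RNAs between the members also fell. Of the 10 tested, SPNCRNA.1693 and SPNCRNA.117 passed the filter on low counts through their WT libraries, so a lower level was favored in them. Of the other 8, 5 were lower in snf22-(D996A-E997A) on the adjusted p alone, against 22.7% of all genes, and 4 in snf22∆, against 25.8%. Among them prt2, the RNA that runs into pho84, had 125, 112 and 155 normalized counts in snf22-(D996A-E997A), 249, 248 and 220 in snf22∆ and 491, 626 and 508 in WT, so the groups did not overlap. Its log2 fold change was −2.05 in snf22-(D996A-E997A) and −1.18 in snf22∆. nc-pho1, the RNA that runs into pho1, passed in neither mutant, at −0.16 and 0.33. prt2 covers 89.0% of pho84 and nc-pho1 91.3% of pho1 on the same strand in the reference annotation, so reads there could belong to either and these values are uncertain.

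nam3, a long non-coding RNA between say1 and SPBPB2B2.05, had 94.3, 38.3 and 51.2 normalized counts in snf22-(D996A-E997A), 50.7, 38.1 and 55.1 in snf22∆ and 114, 131 and 136 in WT. It was called lower in both mutants (log2 fold change −1.05, adjusted p = 0.012, in snf22-(D996A-E997A) and −1.40, adjusted p = 0.0019, in snf22∆), although say1 beside it passed in neither. SPNCRNA.1693, which covers 21.5% of SPBC8E4.03 on the opposite strand, had 1.97, 0 and 3.07 normalized counts in snf22-(D996A-E997A), 4.37, 8.67 and 3.93 in snf22∆ and 14.6, 27.2 and 15.6 in WT. Both mutants were below WT, as they were for SPBC8E4.03, but the raw counts were 2, 0 and 3 in snf22-(D996A-E997A), 5, 10 and 4 in snf22∆ and 15, 24 and 12 in WT.

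**Figure D4:**
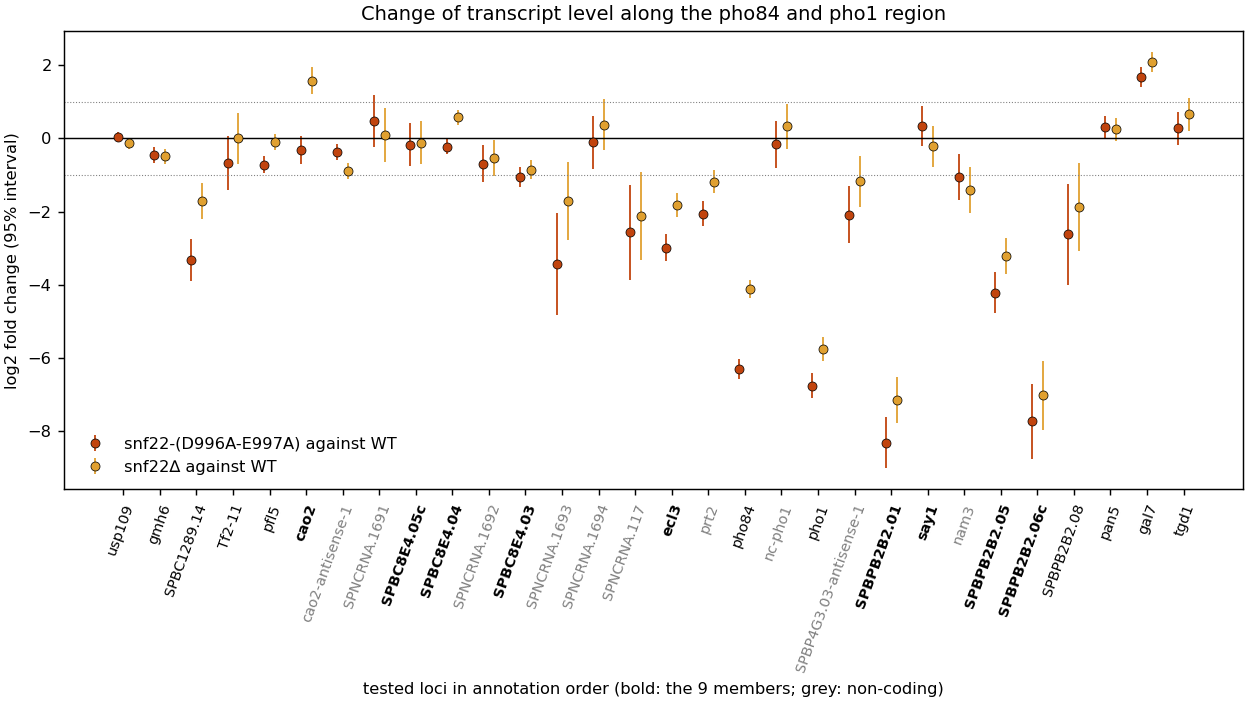
Log2 fold change with 95% interval of every tested locus from cao2 to SPBPB2B2.06c, in annotation order, for snf22-(D996A-E997A) and snf22∆ against WT. The tested ones of the 5 next coding loci beyond each end are included, and non-coding loci beyond the ends are not shown. Members are in bold, non-coding loci in grey, and dotted lines mark 2-fold. Values below −4 in snf22-(D996A-E997A) appear at pho84, pho1, SPBPB2B2.01, SPBPB2B2.05 and SPBPB2B2.06c, with say1 at 0.34 and nam3 at −1.05 between them.

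Beyond cao2, 3 of the 5 next coding loci passed as lower in snf22-(D996A-E997A), against 22.7% of all genes, and 2 in snf22∆, against 25.8%. SPBC1289.14, annotated as adducin, was the 1 called, with 16.7, 12.8 and 9.22 normalized counts in snf22-(D996A-E997A), 34.1, 46.0 and 40.3 in snf22∆ and 129, 157 and 108 in WT. Beyond SPBPB2B2.06c, 4 of the next 5 were tested, and 1 passed as lower in each mutant, beside the same shares of all genes. It was SPBPB2B2.08, which was kept by the filter through its WT libraries. In snf22-(D996A-E997A) 1 passed as higher, against 25.8% of all genes, and in snf22∆ 2, against 30.2%. Of these, gal7, which encodes the uridylyltransferase of galactose use, was called higher in both mutants, and tgd1 passed as higher in snf22∆. gal7 had 367, 324 and 384 normalized counts in snf22-(D996A-E997A), 515, 444 and 477 in snf22∆ and 116, 106 and 115 in WT.

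The genes with the most similar profiles were found by the root mean square difference of log2 levels, each centred on its own mean over the 9 libraries. For SPBPB2B2.01 the nearest of all genes tested was pho1, at 0.83, followed by SPBPB2B2.06c at 1.03 and the peroxin gene pex7 at 1.06. For SPBPB2B2.06c the nearest were SPBPB2B2.01, pho1 and pex7, at 1.03, 1.03 and 1.08. The nearest to ecl3 were SPBC1271.07c, for an N-acetyltransferase, at 0.26, SPBC1289.14, 1 of the 5 loci beyond cao2, at 0.27, and the malic enzyme gene mae2 at 0.28. For SPBPB2B2.05 they were epe1-antisense-1 at 0.35, SPAPB24D3.07c at 0.36 and SPBC23G7.13c at 0.58, and for SPBC8E4.03 cwf19-antisense-1, asn1 and mpc1 at 0.07 to 0.08. The measure keeps the size of a change, so genes that varied little are near many others, and its values cannot be set against each other between members. The nearest to cao2 was SPAC4F10.17 at 0.17, with means of 9.97 in snf22-(D996A-E997A), 35.5 in snf22∆ and 14.98 in WT.

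Other genes of the members' families were taken from the deposited product descriptions. All 3 ecl genes were lower than in WT in both mutants on the adjusted p alone, and ecl1 and ecl3 were called. Over all genes, 22.7% passed as lower in snf22-(D996A-E997A) and 25.8% in snf22∆, and 3.07% and 3.09% were called lower. The log2 change of ecl1 was −1.37 in snf22-(D996A-E997A) and −1.38 in snf22∆, and ecl2 had −0.56 and −0.74 in the same mutants, while ecl3 was the 1 of the family that passed the direct comparison of the mutants. Of the 3 agmatinase genes, SPBC8E4.03 fell and the others rose: SPAC11D3.09 had means of 416 in snf22-(D996A-E997A), 498 in snf22∆ and 201 in WT, and SPAPB24D3.03 had 963, 1035 and 642. The copper amine oxidase gene cao1, with means of 2585 in snf22-(D996A-E997A), 2461 in snf22∆ and 2825 in WT, passed in neither comparison with WT (adjusted p = 0.21 and 0.056).

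Of the 6 genes for 5′-nucleotidases, 5 passed as lower and 1 as higher in snf22-(D996A-E997A), and 3 as lower and 1 as higher in snf22∆. The 2 called were SPBPB2B2.06c and SPAC1039.02, which had means of 859 in snf22-(D996A-E997A), 514 in snf22∆ and 13609 in WT. SPBPB2B2.06c passed the filter on low counts only through its WT libraries, so a lower level was favored in it. Of the 27 amino acid transporter genes, 11 passed as lower and 7 as higher in snf22-(D996A-E997A), and 12 as lower and 6 as higher in snf22∆. Over all genes the shares were 22.7% lower and 25.8% higher in snf22-(D996A-E997A), and 25.8% lower and 30.2% higher in snf22∆. The median log2 fold change of these transporter genes was −0.11 in snf22-(D996A-E997A) and −0.15 in snf22∆. SPAC1039.01, also annotated as an amino acid transporter, had means of 928 in snf22-(D996A-E997A), 1017 in snf22∆ and 2922 in WT. Whether these family members share reads with SPBPB2B2.01 or SPBPB2B2.06c was not examined. The other glutamine amidotransferase gene, SPAC13C5.04, rose in snf22∆ (log2 fold change 0.49, adjusted p = 0.013), the opposite direction to SPBPB2B2.05. Of 8 phosphate genes (pho1, pho84, tgp1, pho842, pho4, SPAC1039.02, SPBPB2B2.06c and pho7), 5 were called lower and 1 higher in snf22-(D996A-E997A), and 4 lower and 0 higher in snf22∆, where none passed as higher on the adjusted p alone either. Over all genes the called shares were 3.07% lower and 1.90% higher in snf22-(D996A-E997A), and 3.09% lower and 2.56% higher in snf22∆. The study named several of the phosphate genes from the same libraries, so this list is not independent evidence of a direction.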

How the data were processed

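RNA was measured in 9 libraries, 3 biological replicates each of snf22-(D996A-E997A), snf22∆ and WT, grouped by their labels. The authors purified RNA by hot phenol extraction and sequenced stranded poly(A)+ libraries on a NovaSeq instrument. Per the submitters' processing notes, reads were aligned with HISAT2 2.1.0 to ASM294v2 and counted with HTSeq 0.10.0. The deposited matrix holds raw counts per gene. The tables of the authors' own comparisons hold log2 fold changes, p-values and group means, none of which were used. Gene names and product descriptions came from 1 of them. A single ID was on 2 lines of the matrix. The order of loci came from RefSeq's ASM294v3, in which 6836 of 6988 IDs matched. Its build differs from that of the counts, so no coordinates or sequences are printed, and the planned searches of promoters and protein sequences were not made.

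The quasi-likelihood test of edgeR 4.0.16 (R 4.3.3) was run with TMM scaling, all 9 libraries in 1 fit with group as the only factor. Genes that reached 10 counts in 3 or more libraries were kept (6091), and p-values were adjusted by Benjamini-Hochberg over all of them. Calls followed the study's thresholds of adjusted p, 2-fold change and 100 normalized counts. Standard errors were approximated as the log2 fold change divided by the square root of the F statistic, and intervals cover 95%. The common biological coefficient of variation was 0.104. The script was checked on simulated counts. Totals of 15696972 to 22664218 counts limit the precision of genes with few counts, and sampling error adds to the spread between replicates. Nothing in the labels says more of the biological replicates than their number, so p-values measure the spread between these samples.

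Genes named were the 9 members, pho84, pho1 and their non-coding RNAs, the loci between the outermost members, 5 coding loci beyond each end, the 3 nearest profiles and the members' families. The members and lists were chosen with earlier results of these data known. Alternatives were DESeq2 1.42.0, its size factors in edgeR, TMM over coding genes, no filter on low counts, 2-group fits, a replicate block, calls on the adjusted p alone and each library left out. Replicate numbers come from the labels. Same-numbered libraries deviated together between snf22∆ and WT (correlations of 0.29, 0.23 and 0.47) and not between snf22-(D996A-E997A) and WT (−0.24, 0.05 and 0.16) or snf22∆ (−0.03, 0.09 and 0.03). Pairs with different numbers ranged from −0.38 to 0.32. The 0.32 was for snf22-(D996A-E997A) replicate 1 and WT replicate 2, the libraries that stood apart. The −0.38 was for snf22-(D996A-E997A) replicate 3 and WT replicate 2.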

Additional observations from a re-analysis of the deposited data

How the results depend on the processing

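Each library left out in turn gave 3 to 5 members called lower in snf22-(D996A-E997A) and 3 to 4 in snf22∆, against WT. With all 9 libraries, 3.07% and 3.09% of all genes were called lower in these comparisons. The 3 in snf22-(D996A-E997A) came without WT replicate 2, where SPBC8E4.03 fell short of 2-fold and SPBPB2B2.06c had too few counts to be tested. The count was also 3 without both libraries that stood apart, a setting chosen after seeing the data. On the adjusted p alone, 2 members were higher in snf22∆ than in WT, against 30.2% of all genes. By the same rule 3 were lower in snf22-(D996A-E997A) cells than in snf22∆ cells, against 8.64%. With the replicate block, 4 members were lower and 1 higher in snf22∆, as without it, and the block changed no other call of a member, although SPBC8E4.04 in snf22-(D996A-E997A) reached an adjusted p of 0.029 at −0.23 (edgeR); pho1 passed 2-fold in the direct comparison, at −1.002. The sign of say1 and SPBC8E4.05c, which passed in no comparison as reported, turned under some settings. Leaving out single libraries, say1 ranged over −0.011 (without snf22-(D996A-E997A) replicate 1) to 0.56 in snf22-(D996A-E997A) against WT, and it was 0.016 in snf22∆ without both libraries that stood apart. SPBC8E4.05c ranged over −0.38 to 0.059 (without snf22∆ replicate 1) in snf22∆ against WT and −0.26 to 0.21 in the direct comparison, where the values above 0 came without snf22∆ replicate 2 or snf22-(D996A-E997A) replicate 2 or 3. Among single genes, 531 values kept direction and side of the threshold, 10 newly passed it (SPBC8E4.04 in snf22-(D996A-E997A) against WT under 7 settings, and SPBC8E4.03, say1 and SPBPB2B2.05 in the direct comparison under 1 each) and 6 turned sign. SPBPB2B2.06c was left untested by 2-group fits of the mutants. In genes with fewer than 20 counts per mutant library, depth limits the comparison of the mutants.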
